A study of Rattus norvegicus with 102 samples.

Results

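The set described here holds 10 genes of neuronal signaling, namely Neto1, Prickle2, Nptxr, Homer3, Mpp3, Akap13, Hpca, Prkca, Dclk2 and Ksr1. They are 10 of the 26689 genes in the table of the series and were taken as the rows carrying these symbols, and all 10 passed the filter on low values in every comparison. They were chosen by their CA1 values, which the study had found to be lower in rats with impaired memory than in aged rats without impairment, and these same Ion Proton values took part in that choice. The CA1 contrast between those rats is therefore given below as a description, with no test, and nothing is supported with it. RNA-seq was performed on the hippocampal subfields CA1, CA3 and dentate gyrus (DG) of 34 male Fischer 344 rats, with 1 library for each subfield of each rat. Young rats (Y, n = 10) were 5 to 6 months old and aged rats were 17 to 22 months old. The aged rats had been divided by their search in a water maze probe trial into aged-unimpaired (AU, n = 12) and aged-impaired (AI, n = 12) rats, so impairment is a behavioral class with no genetic or drug manipulation behind it. The tissue was cut by hand as blocks along the hippocampus, without isolating CA2 or the subiculum, so each library mixes neurons, glia and vessels, and fewer cells of a type cannot be told apart from less RNA per cell.

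The products of these genes work mainly at and behind glutamatergic synapses. Neto1 is an auxiliary protein of kainate receptors that also associates with NMDA receptors, Nptxr (neuronal pentraxin receptor) helps to cluster AMPA receptors, and Prickle2 is a planar cell polarity protein found at postsynaptic sites. Homer3 is a postsynaptic scaffold that links membrane receptors to intracellular calcium channels, Mpp3 is a membrane-associated guanylate kinase scaffold, and Akap13 anchors protein kinase A and activates RhoA. Hpca (hippocalcin) is a neuronal calcium sensor, Prkca is a conventional protein kinase C that responds to calcium and diacylglycerol, Dclk2 is a microtubule-associated kinase of the doublecortin family, and Ksr1 is a scaffold that holds Raf, MEK and ERK together.

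Promoter sequence was examined because the genes were picked for a shared direction. RefSeq promoters on GRCr8 (250 bases before to 50 after an annotated start) were at hand for 8 of the 10 genes, the others being Mpp3 and Nptxr. For Akap13, Hpca, Homer3 and Neto1 the window lay inside the gene's span and did not reach its outer end, at distances that differed between genes. Prickle2 had a window inside its span beside another at its outer end. The core of the cAMP response element, TGACG or CGTCA on either strand, lay in the promoters of 3 of these 8 genes, against 21.2% of 33469 promoters of the same length. The GC box, GGGCGG or CCGCCC, lay in 6 of 8 against 33.1%, and TATAAA or its reverse TTTATA in 0 of 8 against 14.2%. GC content ran from 50.7% (Hpca) to 73.3% (Prkca) in the promoters of these genes, beside a median of 51.67% over all promoters. The motif shares were not matched for GC content. None of these motifs contains another, and a match is a string of letters, not a binding site. The promoters with this core are shown, with its letters in capitals, for Akap13 (chr1:138723900-138724199, plus strand), Hpca (chr5:146748309-146748608, minus strand) and Ksr1 (chr10:64596033-64596332, minus strand).
Akap13: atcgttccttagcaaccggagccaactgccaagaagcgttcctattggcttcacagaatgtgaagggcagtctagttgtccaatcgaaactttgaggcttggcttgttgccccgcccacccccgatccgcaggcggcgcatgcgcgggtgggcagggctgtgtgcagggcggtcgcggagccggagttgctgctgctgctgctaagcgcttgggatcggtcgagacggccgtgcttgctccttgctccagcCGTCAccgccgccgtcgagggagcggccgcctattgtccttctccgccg
Hpca: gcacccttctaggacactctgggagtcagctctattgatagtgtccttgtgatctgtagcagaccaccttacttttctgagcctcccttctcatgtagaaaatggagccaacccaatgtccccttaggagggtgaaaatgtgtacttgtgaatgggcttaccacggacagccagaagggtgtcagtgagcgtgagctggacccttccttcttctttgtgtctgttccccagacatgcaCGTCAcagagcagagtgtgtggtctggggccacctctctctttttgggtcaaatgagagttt
Ksr1: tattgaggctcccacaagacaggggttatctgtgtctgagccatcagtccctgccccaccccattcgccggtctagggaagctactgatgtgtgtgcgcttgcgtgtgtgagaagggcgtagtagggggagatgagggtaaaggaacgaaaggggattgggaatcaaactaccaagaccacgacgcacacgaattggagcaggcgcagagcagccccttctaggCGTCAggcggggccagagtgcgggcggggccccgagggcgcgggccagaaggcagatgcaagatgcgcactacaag

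The rat identifiers fall into an R9 series (16 rats) and an R1-R2 series (18 rats), which the labels do not explain. Per the study, rats were characterized at a site in Arizona and a site in Florida, with different suppliers. The labels do not link a series to a site, and a difference between sites was not tested. Reads per library, recovered from the deposited normalized counts, ranged from 4478984 to 21467303. A score of each subfield's marker genes was highest for the labelled subfield in 83 libraries. It was not in 19 libraries, 18 of them from R9 rats (48 libraries) and 1 from R1-R2 rats (54 libraries). The R9 rats gave 11 such libraries among their 16 CA3 libraries, 5 among 16 DG libraries and 2 among 16 CA1 libraries. Results for the 10 genes that rest on CA3 or DG are therefore given within each series as well.

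In CA1, all 10 genes had a lower mean in AI than in AU rats, the direction for which they had been picked. Values are normalized counts, that is reads divided by a size factor for each library, and differences are on the scale of log2(normalized count + 1). Among the receptor-associated genes, Neto1 ran from 737.6 through a median of 1003 to 1588 in AU rats and from 368.6 through 769.6 to 963.5 in AI rats. All 12 AI libraries lay below the AU median for Neto1, and 5 lay below every AU library, although the groups still overlapped. The young libraries, with 640.1, 887.9 and 1387 as lowest, median and highest, lay between the aged groups in their median. Nptxr ranged from 6942 to 23818 around a median of 13392 in AU rats and from 6104 to 13401 around 11715 in AI rats. The median of Nptxr in young rats was 14289, with a range of 8614 to 16862, above both aged groups. Prickle2 ranged from 2290.3 to 4914 (median 3085) in AU rats and from 1889 to 3350 (median 3005) in AI rats. For Prickle2, the AU and AI medians were close to each other, and all 12 AI libraries and 8 of 12 AU libraries lay below the young median of 3517.

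The scaffold genes overlapped more between groups. Homer3 ranged from 162.8 to 1519 (median 531.7) in AU rats and from 238.1 to 689.0 (median 373.5) in AI rats. The AU group was the wide one for Homer3, holding both the lowest and the highest aged library, and the young libraries ran from 321.7 to 861.9 around 504.3. Mpp3 ranged from 676.6 to 1592 (median 948.1) in AU rats and from 470.6 to 1309 (median 771.0) in AI rats. Its young median of 965.0 was close to that of AU rats, and 9 of 12 AI libraries lay below the AU median. Akap13 ranged from 547.2 to 1238 (median 994.6) in AU rats and from 727.3 to 1014 (median 805.3) in AI rats. The lowest Akap13 library was an AU library, while 11 of 12 AI libraries lay below the AU median.

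Among the calcium sensor and kinase genes, Prkca kept its groups furthest apart. Prkca ranged from 1337 to 2266 (median 1798) in AU rats and from 979.6 to 1928 (median 1257) in AI rats. Below every AU library lay 7 of the 12 AI libraries for Prkca, and the young median was 1669. Hpca ranged from 6025 to 30303 (median 18472) in AU rats and from 7923 to 23068 (median 11658) in AI rats. The spread of Hpca was wide in both groups, with the lowest library again an AU library, and the young median was 15573. Dclk2 ranged from 807.3 to 1199 (median 1024) in AU rats and from 597.1 to 1212 (median 884.4) in AI rats. For Dclk2 the highest AI library stood above every AU library, and 4 AI libraries stood below every AU library. Ksr1 ranged from 264.8 to 785.2 (median 536.8) in AU rats and from 208.1 to 773.2 (median 424.4) in AI rats. The young median of Ksr1 was 427.8, next to that of AI rats, and only 3 of 12 AU libraries lay below it.

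**Figure D1:**
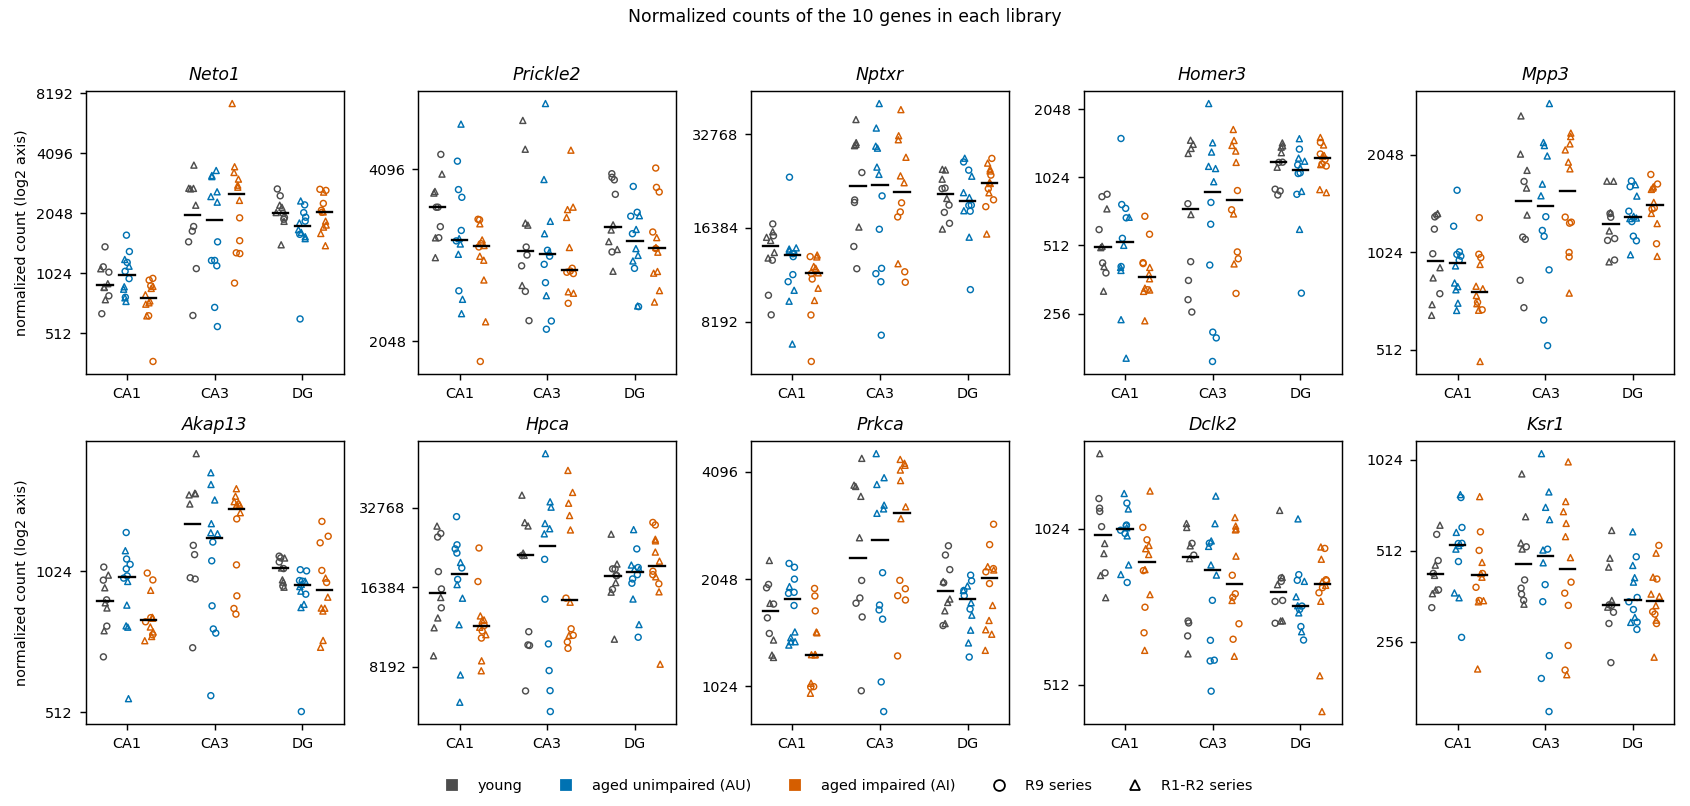
Normalized counts of the 10 genes in every library (log2 vertical axis), by subfield and, from left to right within a subfield, in young, AU and AI rats. Circles are R9 rats, triangles R1-R2 rats and bars group medians. In CA1 the AI median is below the AU median for all 10 genes, and in CA3 circles lie mostly under triangles.

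On the log2 scale, the AI minus AU differences in CA1 ran from -0.44 ± 0.14 (SE, n = 12 and 12) for Neto1 to -0.16 ± 0.12 for Prickle2. The other large differences were -0.44 ± 0.22 for Hpca, -0.40 ± 0.25 for Homer3 and -0.38 ± 0.13 for Prkca. The median over the 10 genes was -0.25, beside 0.02 over all 16406 genes tested. Within the R9 series (5 AI and 6 AU rats) all 10 differences were negative with a median of -0.38. In the R1-R2 series (7 AI and 6 AU rats) 9 of 10 were negative with a median of -0.13, and Nptxr stood at 0.08 ± 0.17. The size of the differences thus varied with the series. The R9 value was the larger one for 9 genes, and for Ksr1 it was -0.19 ± 0.23 in R9 rats and -0.34 ± 0.26 in R1-R2 rats.

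Cognitive status was then compared in the subfields that had not been used to pick the genes. In CA3, 0 of 10 genes passed adjusted p under 0.05 (limma with Benjamini-Hochberg adjustment over 16436 genes, two-sided; 0% of all genes passed). Over all genes, 264 had an unadjusted p under 0.05, none of them a member, and edgeR and DESeq2 on the recovered reads also called 0 genes. Neto1 ranged from 551.8 to 3354 (median 1898) in AU rats and from 912.4 to 7273 (median 2569) in AI rats in CA3. Its AI minus AU difference was 0.46 ± 0.32 (limma, adjusted p = 0.99999), with 2 AI libraries above every AU library and the others inside the AU range. Prkca (0.28 ± 0.27) and Homer3 (0.28 ± 0.39) also had AI means above AU means that did not pass the test. Signs were positive for 9 of 10 genes, with a median of 0.12 beside -0.02 over all genes.

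The signs in CA3 followed the rats used. The R9 series alone gave 10 of 10 positive differences (median 0.24), the R1-R2 series alone gave 3 of 10 (median -0.14), and the libraries whose own subfield score was highest gave 2 of 10 (median -0.14). The difference between the series was itself not past the test for any of the 10 genes (0 of 10, and 0% of all genes; limma, 275 genes and no member at an unadjusted p under 0.05; edgeR and DESeq2 were not run on it).

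In DG, 0 of 10 genes passed (0% of 16182 genes; limma, adjusted p), none of the 10 had an unadjusted p under 0.05 while 287 genes did, and edgeR and DESeq2 called 0 genes. Neto1 ranged from 602.6 to 2358 (median 1760) in AU rats and from 1405 to 2698 (median 2073) in AI rats in DG, a difference of 0.29 ± 0.16. Homer3 ranged from 315.4 to 1516 (median 1100.1) in AU rats and from 876.3 to 1535 (median 1249.9) in AI rats, a difference of 0.33 ± 0.18. For both genes the lowest AU library lay below every AI library. Prkca differed by 0.16 ± 0.12 in DG, with 6 AI libraries above every AU library and 5 below the AU median. Positive signs were seen for 9 of 10 genes with a median of 0.11, beside 0.00 over all genes. They were 10 of 10 in the R9 series (median 0.28), 6 of 10 in the R1-R2 series (median 0.01) and 3 of 10 in the libraries with the highest score for their own subfield (median -0.06). The series did not differ past the test for any of the 10 genes (0 of 10, and 0% of all genes; limma, 309 genes and 1 member, Akap13, at an unadjusted p under 0.05).

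**Figure D2:**
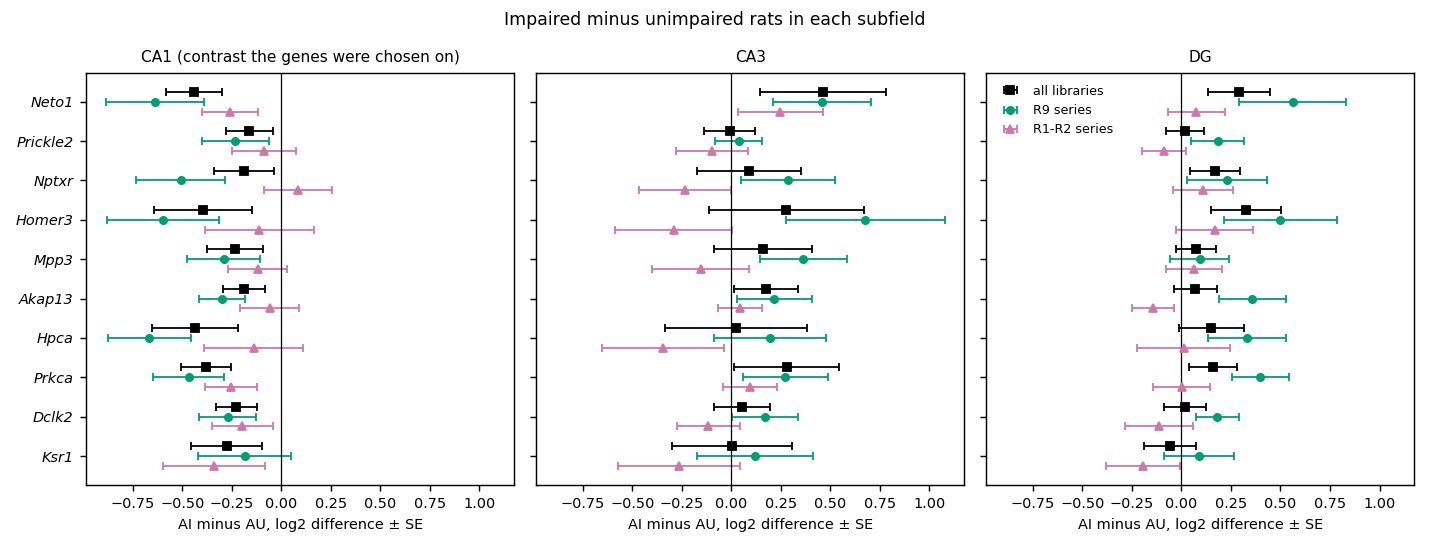
AI minus AU differences on the log2 scale with SE for each gene in CA1, CA3 and DG, for all 24 aged rats (squares), the R9 series (circles) and the R1-R2 series (triangles). CA1 values are negative for all 10 genes over all rats, CA3 and DG values are positive for 9 of 10, and the R9 values lie farther from 0 for most genes.

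The makeup of the CA1 tissue was described with marker scores, each the mean of centered log2 values of a list of marker genes. The CA1 score of CA1 libraries was 1.11 ± 0.46 (SD, n = 12) in AI and 1.08 ± 0.88 in AU rats. A contrast score, the CA1 score minus the mean of the CA3/CA2 and DG scores, was 1.24 ± 0.51 in AI and 1.31 ± 1.03 in AU rats (two-sided permutation test, p = 0.868). Over all rats the means of these scores in AI and AU rats lay close together. The wider AU spread held 1 library, of rat R9869, at -1.61 for the CA1 score and -1.64 for the contrast score. The next lowest AU libraries stood at 0.91 and 0.67. The scores were not compared without R9869. The series moved in opposite directions for the CA3/CA2 score of CA1 libraries. It was -0.60 ± 0.65 (SD, n = 5) in AI and -0.01 ± 0.23 (n = 6) in AU rats of the R9 series (exact permutation test, p = 0.0390, adjusted p = 0.667). In the R1-R2 series it was -0.13 ± 0.27 (n = 7) in AI and -0.50 ± 0.47 (n = 6) in AU rats (exact permutation test, p = 0.108, adjusted p = 0.844). The opposite moves of the CA3/CA2 score are averaged in that score over all rats. The DG score was 0.11 ± 0.45 in AI and -0.42 ± 0.64 in AU rats of the R9 series. In R1-R2 rats it was 0.03 ± 0.47 and 0.01 ± 0.54. Over all rats the DG score was 0.06 ± 0.44 in AI and -0.20 ± 0.61 in AU rats (permutation test, p = 0.239). Of the 42 comparisons (14 scores in 3 subfields), 0 passed an adjusted p under 0.05, and the permutation test gave an adjusted p of 0.999 for every CA1 score.

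With the contrast score in the model, the median of the CA1 differences of the 10 genes was -0.26, and all 10 stayed negative, as they did with all 3 subfield scores (median -0.29). Neto1 stood at -0.45 ± 0.13 and Homer3 at -0.42 ± 0.22 with the contrast score. Leaving out the 2 CA1 libraries whose own score was not highest, 1 AI and 1 AU, gave a median of -0.34. The genes were chosen on these CA1 differences, and the part of tissue mixture in them was not tested.

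The largest CA1 differences between AI and AU in other marker lists were in ependymal, subiculum and thalamus markers, and none passed the correction. The ependymal score was -0.93 ± 1.22 in AI and 0.03 ± 1.20 in AU rats (permutation test, p = 0.0677, adjusted p = 0.999), from the 4 of 6 listed genes found by symbol, whose summed level ranged from 40.9 to 328.8 in AI and from 44.0 to 382.2 normalized counts in AU rats. Foxj1 and Rsph1 were not found by symbol. With the ependymal score in the model the median of the 10 differences was -0.13. Neto1 kept its value (-0.45 ± 0.16) and Ksr1 had -0.39 ± 0.19, while Homer3 stood at -0.03 ± 0.19, Mpp3 at -0.05 ± 0.12, Nptxr at -0.08 ± 0.15 and Hpca at -0.12 ± 0.17. The 10 genes differed in how far they moved with this score, and the part of ependymal or neighboring tissue in the differences was not tested.

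The subiculum score was 1.25 ± 0.46 in AI and 0.84 ± 0.69 in AU rats (permutation test, p = 0.105, adjusted p = 0.999), from 4 of 4 listed genes with a summed level of 1920.4 to 6802 in AI and 1511 to 6145 normalized counts in AU rats. In its presence the median was -0.21, with Nptxr at -0.06 ± 0.15. The thalamus score was 0.53 ± 1.08 in AI and -0.10 ± 0.97 in AU rats (permutation test, p = 0.149, adjusted p = 0.999), from 4 of 5 genes with a summed level of 281.2 to 3015 in AI and 233.6 to 865.0 normalized counts in AU rats. With it the median was -0.34 and Homer3 reached -0.64 ± 0.21. The neuron score was -0.13 ± 0.17 in AI and -0.11 ± 0.18 in AU rats, and the median with it was -0.23.

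**Figure D3:**
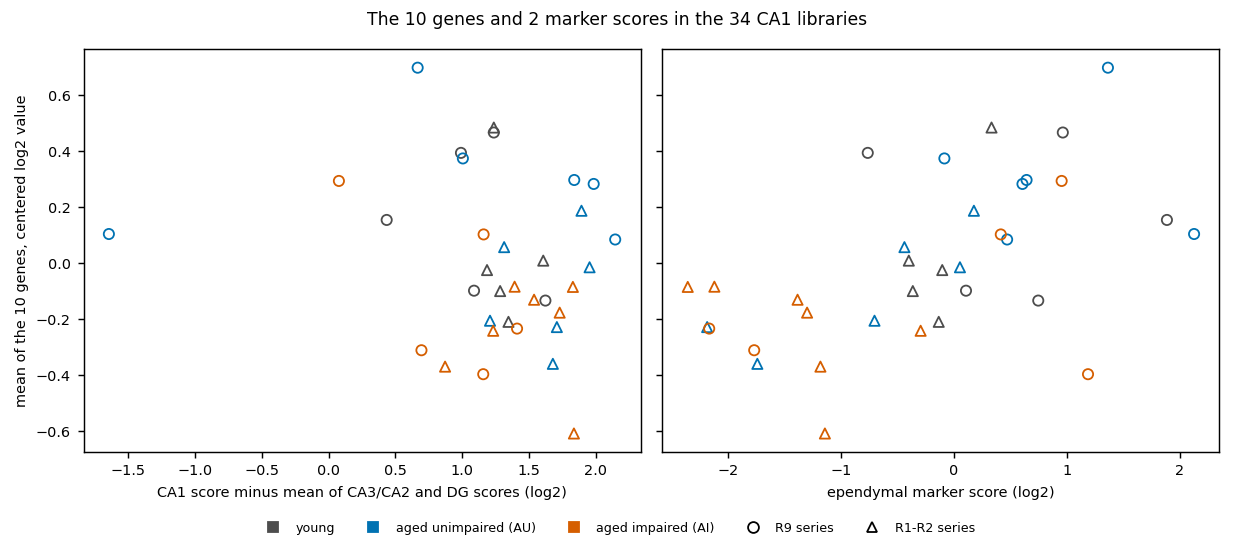
Mean of the 10 genes, each centered over the 34 CA1 libraries on the log2 scale, against the subfield contrast score (left) and the ependymal score (right) of the same library. AI libraries lie lower on the vertical axis (median -0.20) than AU libraries (median 0.09), the direction for which the genes were picked. Several AI libraries have low ependymal scores.

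**Figure D4:**
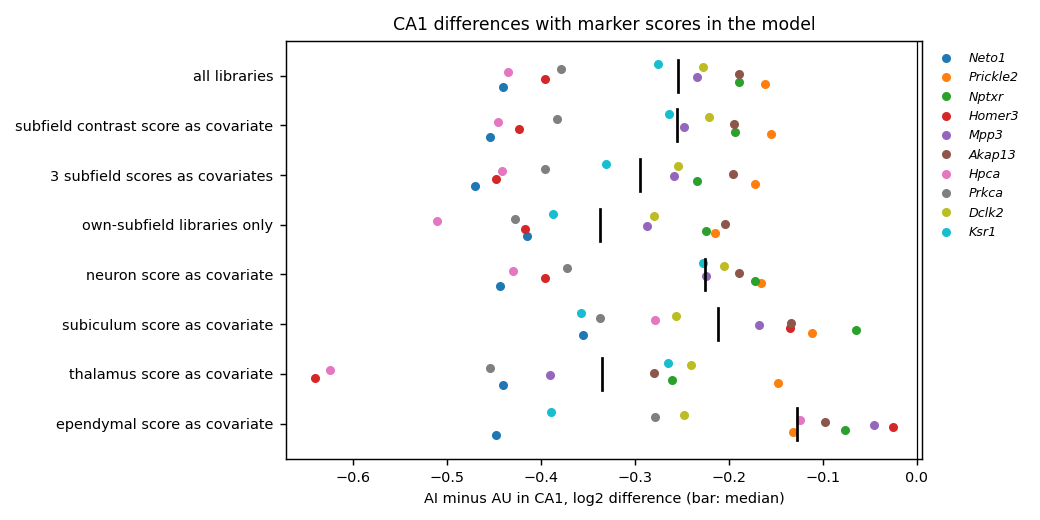
AI minus AU in CA1 on the log2 scale for each gene (points) and their median (bar) without a covariate, with the named scores in the model, and in libraries whose own subfield score was highest. The median runs from -0.34 to -0.13, and the ependymal score brings Homer3, Mpp3 and Nptxr nearest to 0.

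Genes that mark the CA1 gradient were taken from the young rats alone and then followed in the aged rats. Of the young R9 libraries used for this, 3 of 5 from CA3 and 1 of 5 from DG had another subfield's score highest. In young rats, 51 genes tested in the CA1 fit were lower in CA1 than in both CA3 and DG and 65 were higher. In the CA1 of aged rats, the AI minus AU median was -0.02 for the first list (27 of 51 negative) and -0.03 for the second (37 of 65), beside 0.02 over all genes. Neto1 and Nptxr belong to the first list, so this list shares 2 genes with the set. The 10 genes were picked for low values in this contrast and these lists were not, so their medians are not compared. Within the series the first list stood at -0.17 in R9 and 0.11 in R1-R2 rats. In CA3 and DG the same genes moved more, with medians of 0.15 and 0.22 for the first list (53 genes) and -0.10 and -0.15 for the second. Over all rats the 10 genes, with medians of 0.12 and 0.11 in those subfields, had the sign of the first list there. This varied with the series. In R9 rats the 10 genes stood at 0.24 in CA3 and 0.28 in DG, beside 0.26 and 0.25 for the first list. In R1-R2 rats they stood at -0.14 and 0.01, beside 0.02 and 0.12.

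Across CA1 libraries of a group and series, the slope of a gene on the contrast score was negative for 6 of 10 genes. Homer3 had -0.28 ± 0.13 and Neto1 -0.21 ± 0.09 log2 units per unit of score, while Ksr1 had 0.21 ± 0.11 and Prickle2 0.13 ± 0.07. The median slope of the 10 genes was -0.03, beside -0.02 over 16385 genes, of which 57.65% were negative. The slopes of the 10 genes thus differed in sign. They include the AU library of rat R9869, far below the other AU libraries at a contrast score of -1.64, and were not fitted without it.

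The gradient across subfields was compared over the libraries of all 34 rats. CA1 was lower than CA3 for 6 of 10 genes past adjusted p under 0.05, beside 7.76% of all genes called lower, and higher for 1 of 10, beside 7.29% called higher (limma). Neto1 ranged from 368.6 to 1588 (median 872.1) in the 34 CA1 libraries and from 551.8 to 7273 (median 2285) in the 34 CA3 libraries, a difference of -1.13 ± 0.14 (limma, adjusted p = 2.35e-10). Nptxr (-0.77 ± 0.11), Prkca (-0.69 ± 0.11), Mpp3 (-0.67 ± 0.11), Homer3 (-0.62 ± 0.17) and Akap13 (-0.42 ± 0.07) were the other genes lower in CA1. Dclk2 was the gene higher in CA1, by 0.23 ± 0.07 (limma, adjusted p = 0.0150). Hpca (-0.28 ± 0.16), Prickle2 (0.07 ± 0.07) and Ksr1 (0.02 ± 0.12) did not pass in limma. Over the same libraries edgeR called 7 of the 10 genes lower in CA1, beside 1464 of all 16374 genes. DESeq2 also called 7, beside 1641 of 16224. The call of Dclk2 was lost in the R1-R2 series alone (limma, adjusted p = 0.863) and in libraries whose own subfield score was highest (limma, adjusted p = 0.214), where Hpca passed at -0.65 (limma, adjusted p = 0.00110).

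Against DG, CA1 was lower for 4 of 10 genes, beside 14.0% of all genes, and higher for 2, beside 14.5%. Homer3 had the largest difference, from a median of 427.4 (162.8 to 1519) in CA1 to 1181 (315.4 to 1535) in DG, or -1.24 ± 0.17 (limma, adjusted p = 8.66e-09). Neto1 (-1.12 ± 0.14), Nptxr (-0.79 ± 0.11) and Mpp3 (-0.58 ± 0.11) were also lower, and Dclk2 (0.31 ± 0.07) and Ksr1 (0.32 ± 0.12) were higher. Ksr1 did not pass with no filter on low values (limma, adjusted p = 0.0543) or in the R1-R2 series alone (0.20 ± 0.15; limma, adjusted p = 0.468). Hpca, Prkca, Akap13 and Prickle2 did not pass. Between CA3 and DG, 2 of 10 genes were higher in CA3, beside 15.3% of all genes, and 1 was lower, beside 13.6%. These were Prkca (0.43 ± 0.11; limma, adjusted p = 0.00216) and Akap13 (0.30 ± 0.07) above, and Homer3 (-0.62 ± 0.17; limma, adjusted p = 0.00380) below. Homer3 did not pass in edgeR (adjusted p = 0.0634), in DESeq2 (adjusted p = 0.0625), in libraries whose own subfield score was highest (-0.25 ± 0.16; limma, adjusted p = 0.248) or in the R1-R2 series alone (0.02 ± 0.15; limma, adjusted p = 0.961). Ksr1, at 0.30 ± 0.12 (limma, adjusted p = 0.0517), passed with rat as a replicate block (limma, adjusted p = 0.0257). Other fits over all rats also called 3 of the 10 genes higher in CA3, not 2. These were a pseudocount of 5 (beside 2702 of 16374 genes), the series as a covariate (2585 of 16374), edgeR (3019 of 16374) and DESeq2 (3391 of 16224). In the order of levels over all rats, Neto1, Nptxr and Mpp3 thus had CA1 lowest with CA3 and DG not separated, and Homer3 had CA1 lowest, with CA3 below DG only in the fits where that call held. Prkca and Akap13 had CA3 highest with CA1 and DG not separated, and Dclk2 had CA1 highest with CA3 and DG not separated. For Ksr1 only CA1 and DG were separated in the main limma fit, and CA3 was also above DG with rat as a block. Hpca and Prickle2 did not separate in any pair over all rats in limma, while edgeR and DESeq2 called 7 genes lower in CA1 than in CA3. For Hpca, CA1 against CA3 went in opposite directions in the R9 and R1-R2 series, as given below.

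The gradient depended on the identifier series. In CA3, Prkca ranged from 870.3 to 2135 (median 1742) in 16 R9 rats and from 2676 to 4607 (median 3766) in 18 R1-R2 rats, with no overlap. Neto1 ran from 551.8 to 1940 (median 1234) in R9 CA3 and from 2245 to 7273 (median 2797) in R1-R2 CA3, again with no overlap. Hpca ran from 5555 to 21599 (median 10096) and from 10777 to 52445 (median 28667), and Homer3 from 157.5 to 895.0 (median 427.0) and from 424.5 to 2167 (median 1330.1). Hpca and Homer3 overlapped between the series, but their medians stood far apart. How many of all genes had no overlap between the series in CA3 was not counted.

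Within the R1-R2 series, 8 of 10 genes were lower in CA1 than in CA3, beside 12.1% of all genes, and 0 were higher, beside 9.72%. Within the R9 series 0 were lower, beside 2.07%, and 4 were higher, beside 2.89% (limma; 6 of the 10 had an unadjusted p under 0.05). Neto1 differed by -1.83 ± 0.10 in R1-R2 rats (limma, adjusted p = 3.99e-22) and -0.33 ± 0.17 in R9 rats (limma, adjusted p = 0.298). Hpca was lower in CA1 in R1-R2 rats (-1.24 ± 0.16; limma, adjusted p = 1.95e-08) and higher in R9 rats (0.80 ± 0.15; limma, adjusted p = 0.000859). Rat by rat, CA1 was below CA3 in 18 of 18 R1-R2 rats for Neto1, Nptxr, Homer3, Mpp3, Akap13, Hpca and Prkca. In the R9 series this held in 11 of 16 rats for Neto1, 13 for Nptxr, 3 for Homer3, 7 for Mpp3, 10 for Akap13, 1 for Hpca and 8 for Prkca. This rat-by-rat order was not counted over all genes.

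The difference of the CA1 against CA3 contrast between the series passed the test for 10 of 10 genes, beside 14.4% of all genes (limma interaction term). It was largest for Homer3 (2.19 ± 0.26), Hpca (2.04 ± 0.23) and Prkca (1.54 ± 0.14; limma, adjusted p = 3.21e-14). Between CA3 and DG it also passed for 10 of 10, beside 16.6%. There, R9 rats had 7 genes lower in CA3, beside 13.0%, and 0 higher, beside 14.2%, whereas R1-R2 rats had 8 higher, beside 12.1%, and 0 lower, beside 10.1% (limma). For CA1 against DG, 0 of 10 genes differed between the series, beside 0.165% of all genes (limma; 3 of the 10 at an unadjusted p under 0.05; edgeR and DESeq2 were not run on this term). In R1-R2 rats, CA1 against DG gave -1.63 ± 0.15 for Homer3 and -1.12 ± 0.10 for Neto1, and in R9 rats -0.79 ± 0.21 and -1.11 ± 0.17. In this contrast R9 rats had 4 of 10 genes lower, beside 17.9%, and 2 higher, beside 18.3%, and R1-R2 rats had 6 lower, beside 6.98%, and 1 higher, beside 7.34% (limma). The dependence on series passed the test in both contrasts that involve CA3, and 11 of 16 R9 CA3 libraries had another subfield's score highest. The part of tissue mixture in this dependence was not tested.

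**Figure D5:**
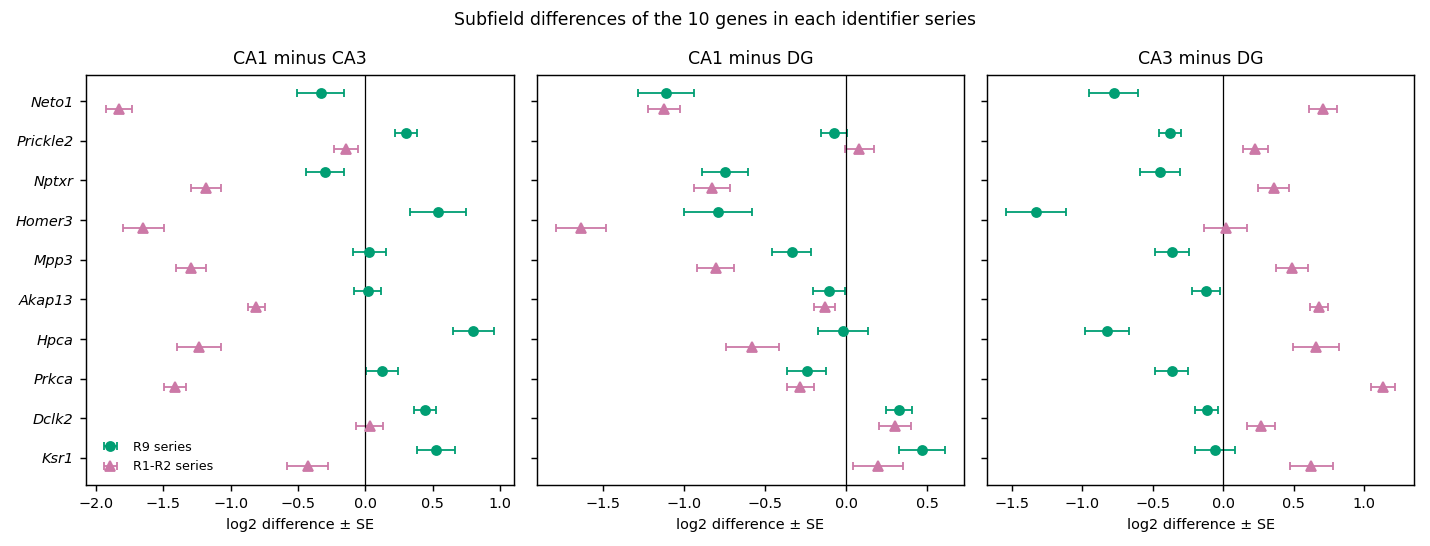
Subfield differences on the log2 scale with SE for each gene, in the R9 series (circles, 16 rats) and the R1-R2 series (triangles, 18 rats). The series stand apart for CA1 minus CA3 and for CA3 minus DG, with opposite signs for most genes, and lie nearer to each other for CA1 minus DG.

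Age was compared as 24 aged against 10 young rats in each subfield. In CA1 0 of 10 genes passed adjusted p under 0.05, beside 0.0183% of all genes (limma; 1 of the 10 at an unadjusted p under 0.05; edgeR and DESeq2 called 0 of the 10). That 1 gene was Prickle2, at -0.22 ± 0.10 (limma, adjusted p = 0.934), and 8 of 10 signs were negative, with a median of -0.15 beside -0.03 over all genes. Prickle2 ranged from 2870.1 to 4350 (median 3517) in young CA1 and had medians of 3085 in AU and 3005 in AI rats. In CA3 0 of 10 genes passed, beside 0.00607% (limma; 0 at an unadjusted p under 0.05; edgeR and DESeq2 0), with differences from -0.14 for Nptxr to 0.08 for Homer3. Positive CA3 differences were seen for 1 of 10 genes in R9 rats (range -0.47 to 0.08) and 6 of 10 in R1-R2 rats (-0.13 to 0.16). In DG 0 of 10 genes passed, beside 0.0741% (limma; 0 at an unadjusted p under 0.05; edgeR and DESeq2 0). The DG differences ran from -0.16 for Neto1 to 0.14 ± 0.10 for Mpp3, with 6 of 10 positive in R9 rats and 2 of 10 in R1-R2 rats. For Akap13 in DG the difference was -0.15 ± 0.09, and all 12 AU libraries and 9 of 12 AI libraries lay below the young median of 1038. The comparison of aged with young rats thus gave no call in the set in any subfield.

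Partners and paralogs of the 10 genes were counted as a frame for the gradient. Of 51 listed genes, 43 were tested. CA1 exceeded CA3 for 11 of these genes (limma, adjusted p under 0.05), beside 7.29% of all genes, and fell below it for 3, beside 7.76%. In R9 rats alone the higher and lower genes numbered 5 and 3, beside 2.89% and 2.07% of all genes. In R1-R2 rats alone they numbered 12 and 5, beside 9.72% and 12.1%. The doublecortin-like kinases Dclk1 (0.45 ± 0.07) and Dclk3 (0.89 ± 0.14) led the higher genes, with Dclk2 of the set in the same direction. Hpcal1 (-0.54 ± 0.12), a calcium sensor related to hippocalcin, and Akap6 (-0.21 ± 0.06), an anchor of protein kinase A, led the lower ones. Against DG, 7 were higher in CA1, beside 14.5% of all genes. They were led by Neto2 (0.86 ± 0.09), the paralog of Neto1, and Prkcb (0.63 ± 0.07), the beta isoform of protein kinase C. Their relatives in the set went the other way, with Neto1 at -1.12 and Prkca at -0.26, the latter not past the test. The 17 lower genes, beside 14.0% of all genes, included Map2k1 (-0.61 ± 0.07), which encodes MEK1. For CA3 against DG, 3 were higher, beside 15.3% of all genes, led by Akap12 (0.72 ± 0.12) and Neto2 (0.41 ± 0.09). Another 21 were lower, beside 13.6%, among them Mpp7 (-1.53 ± 0.15). For age and for AI against AU in CA3 and DG, 0 of 43 passed in limma, edgeR or DESeq2. Over all genes, at most 0.0741% passed these comparisons in limma (aged against young in DG).

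Similarity of pattern was measured as Pearson's r of log2 values over all libraries, which share rats, subfields and series, and is given as a description. Within the set, Nptxr and Mpp3 (r = 0.884) and Akap13 and Prkca (r = 0.879) were most alike, and Neto1 and Dclk2 (r = -0.02) were least alike. Over all genes, the 2 most like Neto1 were Itgbl1 (r = 0.901) and Pvrl3 (0.888), those most like Nptxr were Actr1b (0.902) and Mpp3, and those most like Mpp3 were Anxa6 (0.906) and Sulf2 (0.892). Homer3 was most like Anxa11 (0.887) and Klhl2 (0.875), Hpca most like Smpd3 (0.883) and Bok (0.872), a gene of the CA3/CA2 marker list, and Prickle2 most like Gpr155 (0.839) and Cacnb2 (0.826). Akap13 and Prkca were each other's closest gene, followed by Nt5dc3 (0.794) and Adamts3 (0.828). Dclk2 was most like Cotl1 (0.780) and Dgkz (0.775), and Ksr1 most like Celsr2 (0.807) and Coro2b (0.799).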

How the data were processed

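Poly-A RNA was sequenced on the Ion Proton. Per the study's methods, the authors aligned reads to the rat genome (rn5) with TopHat2 and Bowtie2 and counted them on genes with featureCounts 1.4.4. The deposited signal is each gene's read count divided by a DESeq2 size factor for its library. Division by a library's smallest step gave whole reads for 100% of values (tolerance 0.001), and 4478984 to 21467303 reads per library. Intervals on single counts were not needed, because the spread between rats was used.

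Subfields (libraries of 34 rats), age (24 aged and 10 young rats in each subfield) and cognitive status (12 AI and 12 AU rats in CA3 and DG) were tested with limma 3.58.1 in R 4.3.3 (eBayes with trend, two-sided) on log2(value + 1). Genes entered a fit where their mean there reached 5. P-values were adjusted by Benjamini and Hochberg's method over every gene in the fit, and the threshold was 0.05. On this scale the changes of low genes are understated. Rats were the replicates. Same-numbered libraries of the 3 subfields come from 1 rat; the mean correlation of their deviations from group means was 0.0626 for CA1 with CA3, 0.103 for CA1 with DG and 0.0078 for CA3 with DG (34 rats each). Marker scores were means of centered log2 values, compared with permutation tests (100000 permutations). Tests were checked on simulated data.

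The members and gene lists were chosen with earlier results of these data known. Of genes outside the set, the text names, by rule, the 2 relatives of lowest adjusted p per direction and the 2 genes most alike to each member. Of the genes under this rule, 1 is not reported here. Alternatives were a pseudocount of 5, no filter, TMM rescaling, each identifier series alone or the series as a covariate, edgeR 4.0.16 and DESeq2 1.42.0 on recovered reads, libraries with their own subfield score highest, rat as a replicate block, and score covariates. Added after the data were seen were the subiculum, thalamus, ependymal and neuron covariates, the difference between series, the gene lists from young rats and the slopes on the contrast score. Python 3.11.15 with numpy 2.4.6, pandas 2.3.3, scipy 1.17.1 and matplotlib 3.10.9 was used. Illumina data are not analysed here.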

Additional observations from a re-analysis of the deposited data

Results flagged for a closer look

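The CA1 against CA3 difference stood apart between the R9 and R1-R2 series for all 10 genes by a test of the difference itself (limma interaction term, adjusted p under 0.05). R9 minus R1-R2, it was 1.499 for Neto1, 0.45 for Prickle2, 0.88 for Nptxr, 2.19 for Homer3, 1.32 for Mpp3, 0.83 for Akap13, 2.04 for Hpca, 1.54 for Prkca, 0.41 for Dclk2 and 0.95 for Ksr1 on the log2 scale. The same held for CA3 against DG, with -1.48 for Neto1, -0.61 for Prickle2, -0.80 for Nptxr, -1.34 for Homer3, -0.85 for Mpp3, -0.80 for Akap13, -1.48 for Hpca, -1.501 for Prkca, -0.38 for Dclk2 and -0.68 for Ksr1. The cause was not tested, and what the series are is not given by the labels.

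Dclk2 in the DG of young rats had 1 library at 1112 normalized counts, with the next at 825.7, a gap that was large for the range of the 10 rats. It was 1 of 30 groups of young libraries looked at, where chance flags about 1 in 20.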

How the results depend on the processing

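Over all libraries, the counts of members called kept within 1.5 times except that CA1 against CA3 gave 4 in the R9 series alone, and CA3 against DG gave 5 in own-subfield libraries, 8 in the R1-R2 and 7 in the R9 series alone. Counts of all genes moved to 814 for CA1 against CA3 in the R9 series alone and to 2341 for CA1 against DG in the R1-R2 series alone. For age they moved in CA1 to 6 (DESeq2) and to 0 (own-subfield libraries, R9 and R1-R2 alone), in CA3 to 4 (edgeR), 2 (no filter) and 0 (own-subfield libraries, R9 alone), and in DG to 38 (DESeq2), 21 (series as a covariate), 6 (own-subfield libraries), 1 (R1-R2 alone) and 5 (R9 alone). The causes were not tested.

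Directions turned for named genes as follows, on the log2 scale. In the R9 series alone, CA1 against CA3 gave 0.54 for Homer3, 0.030 for Mpp3, 0.016 for Akap13, 0.80 for Hpca and 0.12 for Prkca, CA1 against DG gave -0.075 for Prickle2, and CA3 against DG gave -0.78 for Neto1, -0.37 for Mpp3, -0.12 for Akap13, -0.37 for Prkca, -0.12 for Dclk2 and -0.060 for Ksr1. In the R1-R2 series alone, CA1 against CA3 gave -0.15 for Prickle2 and -0.43 for Ksr1, CA3 against DG gave 0.23 for Prickle2, 0.36 for Nptxr, 0.017 for Homer3 and 0.66 for Hpca, and AI against AU in CA3 gave -0.29 for Homer3. In own-subfield libraries, CA1 against CA3 gave -0.0065 for Prickle2 and -0.22 for Ksr1, CA3 against DG gave 0.015 for Prickle2, 0.25 for Nptxr and 0.29 for Hpca, and AI against AU gave -0.31 for Homer3 and -0.025 for Prkca in CA3 and -0.056 for Prkca in DG. edgeR and DESeq2 gave -0.082 and -0.080 for Ksr1 in CA1 against CA3, and for CA3 against DG 0.062 and 0.078 for Nptxr and 0.15 and 0.16 for Hpca. TMM rescaling gave -0.0047 for Prickle2 in CA1 against DG and -0.013 for Neto1 in CA3 against DG.

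With rat as a replicate block, the pairing of the 3 subfields within a rat, 2730 genes were called between CA1 and CA3 (2409 of them also without the block), 5200 between CA1 and DG (4632) and 5223 between CA3 and DG (4687). The block changed the call of 1 named gene, Ksr1 in CA3 against DG. No paired analysis was possible for age or cognitive status because each rat has 1 age and 1 status. Leaving out each rat in turn was not run, since groups hold 10 to 12 rats. In CA1, the median AI minus AU difference of the 10 genes ran from -0.38 to -0.13 over 12 alternatives.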
